A study of Homo sapiens with 12 samples.

Results

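Gilteritinib alone was compared with the DMSO vehicle in MOLM-13 cells, using all 6 libraries of those groups out of the 12 in the series. MOLM-13, a human line established from acute myeloid leukaemia, has both the MLL-AF9 gene fusion and a FLT3 internal tandem duplication, and gilteritinib inhibits the FLT3 kinase. Both groups had 3 libraries of ribosome-depleted total RNA, made from cells treated for 8 days, and members were chosen by the sample titles. The DMSO group received vehicle only, and both groups carry the fusion and the FLT3 duplication. A further group of 3 libraries, treated with the menin-MLL1 inhibitor MI-3454 for the same 8 days, was used to test where the gilteritinib response differed from that of another agent. The labels describe cells seeded in triplicate and name no separate donors or lines, so p-values measure the spread between cultures of 1 line.

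FLT3 is a receptor tyrosine kinase of haematopoietic progenitors. The internal tandem duplication makes it signal without ligand, chiefly through STAT5 and also through the RAS-MAPK and PI3K-AKT routes. STAT5 switches on PIM kinases and feedback inhibitors of the CISH and SOCS family, AKT keeps FOXO factors out of the nucleus, and translation control feeds the transcription factor ATF4, which drives genes for amino acid synthesis and uptake.

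Promoter sequences of 4 genes that fell are shown because their letters hold short patterns named after factors of these routes. They come from RefSeq (GRCh38.p14) and lie within the 250 bases before the gene start. Capitals mark matches, and both strands were searched. The stretch of CISH, the STAT5-induced feedback inhibitor, is on the minus strand at chr3:50611867-50612024 and holds 4 matches to the STAT pattern TTCNNNGAA, which begin between 241 and 112 bases before the start.
CISH: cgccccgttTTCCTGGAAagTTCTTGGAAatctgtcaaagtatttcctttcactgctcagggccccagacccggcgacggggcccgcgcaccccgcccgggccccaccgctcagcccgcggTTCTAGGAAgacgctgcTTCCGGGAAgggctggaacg
CHAC1, a glutathione-degrading enzyme, and ASNS, asparagine synthetase, each hold 1 match to the ATF4 pattern TGATGNAA. The CHAC1 match reads on the opposite strand of chr15:40953251-40953280, 209 bases before the start. The ASNS match lies 68 bases before the start, on the minus strand at chr7:97872458-97872487.
CHAC1: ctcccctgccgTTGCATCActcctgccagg
ASNS: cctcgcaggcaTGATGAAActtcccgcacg
IFIT1, an antiviral RNA-binding protein, holds 2 matches to the interferon response pattern GAAANNGAAA, both read on the opposite strand of chr10:89392496-89392540.
IFIT1: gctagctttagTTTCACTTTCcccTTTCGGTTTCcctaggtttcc

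A promoter was given for 9973 of the 13972 tested genes, and each pattern was counted separately in these windows. The STAT pattern occurred in 7.26%, the ATF4 pattern in 2.31% and the interferon pattern in 3.49% of them. A match describes the letters only and shows neither binding nor a cause.

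Total gene counts per library lay between 9020916 and 11147953 with DMSO and between 9028112 and 12051457 with gilteritinib. The marker sum of the myelomonocytic line (CD33, ANPEP, FLT3, SPI1, CEBPA and PTPRC) ran from 1807 to 1958 CPM (counts per 1e+06 gene counts, after scaling between libraries) with DMSO and from 1957 to 2020 CPM with gilteritinib. All 4 erythroid markers were at 0 counts in the 6 libraries, and the sums of T cell, B cell and megakaryocyte markers stayed between 1.08 and 3.15 CPM. The sum of 7 epithelial and fibroblast markers was 1.08 to 2 CPM with DMSO and 2.5 to 3.64 CPM with gilteritinib, with KRT5, KRT14, COL3A1 and DCN at 0, and its only tested member, COL1A1, was called higher at these low levels (0.862 to 1.45 CPM against 2.17 to 3.52 CPM). DMSO 2 and gilteritinib 2 had the largest RN7SL1 share of their groups (4.27% and 2.88%) and the largest share of mitochondrially encoded genes (1.36% and 2.84%). RN7SL1 is the RNA of the signal recognition particle. These 2 libraries touch the counts below, and the part of their shares in any result was not tested.

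With gilteritinib, 967 genes were higher and 1143 were lower than with DMSO at an adjusted p under 0.05 (edgeR's quasi-likelihood test with Benjamini-Hochberg adjustment), which is 6.92% and 8.18% of the genes tested. The median log2 change of all tested genes was -6e-04, and the 5th and 95th percentiles were -0.83 and 0.73. Deviations from the group mean correlated at 0.456 between DMSO 2 and gilteritinib 2, and at 0.181 and 0.144 for pairs 1 and 3. DMSO 3 with gilteritinib 1, of different numbers, reached 0.262. A fit that blocked on replicate number, which is not shown to mark a pairing, called 2474 genes higher and 2454 lower, or 17.7% and 17.6%. Leaving out DMSO 2 raised the counts to 1928 and 2057. Without DMSO 1, DMSO 3, gilteritinib 1, gilteritinib 2 or gilteritinib 3, they were 535 and 736, 566 and 741, 587 and 680, 629 and 772, and 566 and 677. A total of 414 higher and 557 lower genes, or 2.96% and 3.99%, were called in the full fit and in each of these 6 fits. Below, a call is said to hold in all 6 fits where that is so. List counts are to be read beside the 6.92% higher and 8.18% lower of all tested genes. Protein-coding genes made up 878 of the higher and 1019 of the lower calls, and long noncoding genes 58 and 81.

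**Figure D1:**
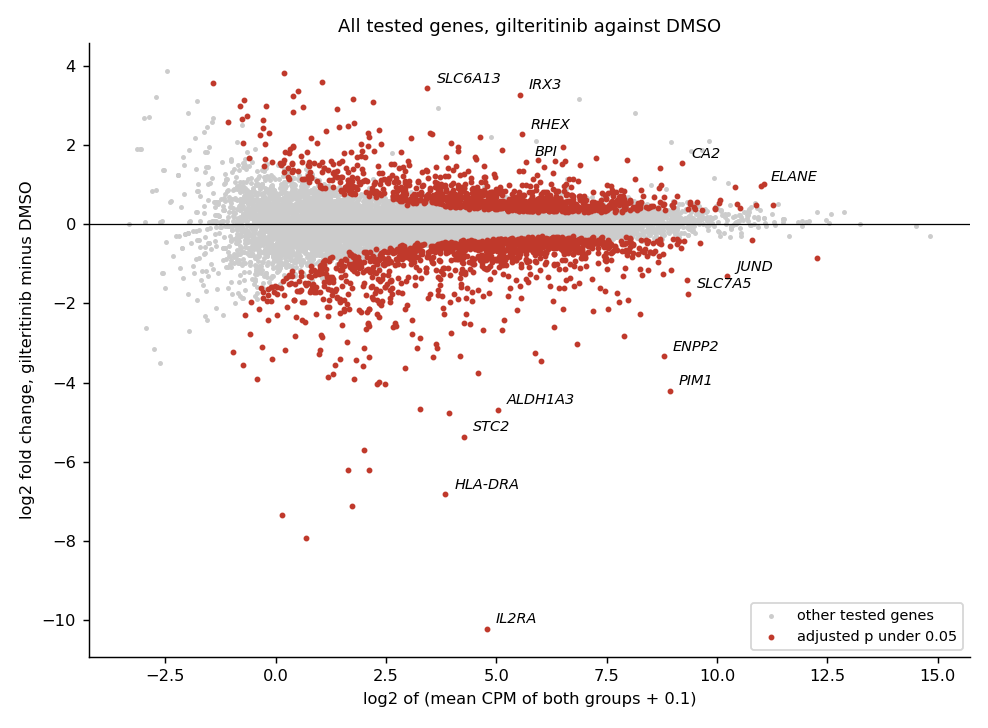
Log2 change with gilteritinib (y axis) against mean abundance (x axis, log2 CPM) for each tested gene, with called genes coloured. Falls reached farther than rises: IL2RA lies lowest, drawn at its fitted value although its gilteritinib libraries held 1 count, and of the other labelled genes HLA-DRA and STC2 lie farthest below 0.

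Log2 changes of genes for the receptor and the proteins that carry its signal lay between -0.71 and 0.33. FLT3 (13:28003274-28100592) read 764, 609 and 716 CPM with DMSO and 551, 476 and 532 CPM with gilteritinib. Every gilteritinib library lay below every DMSO library, and the 1.34-fold fall passed the test (log2 change -0.42 ± 0.12 SE, adjusted p = 0.0326), but the call held in 1 of the 6 fits, that without DMSO 2. STAT5A, the transcription factor downstream of the mutant receptor, averaged 79.1 ± 5.51 CPM with DMSO and 99.3 ± 6 CPM with gilteritinib (SD, n = 3), a 1.25-fold rise (adjusted p = 0.0459) that also held only without DMSO 2. Of 29 tested genes for FLT3 and its signal transducers, 1 was called higher and 3 lower, beside 6.92% and 8.18% of all tested genes. Among them, SH2B3 (log2 change -0.71 ± 0.10), the adaptor LNK that restrains JAK and receptor kinase signals, fell and held in all 6 fits. NRAS (-0.35, adjusted p = 0.139) was not called, and with the block it was (adjusted p = 0.000192). The blocked counts for this list were 6 and 6. Without DMSO 2 they were 2 and 6, and no member was called higher without DMSO 1, DMSO 3, gilteritinib 1 or gilteritinib 3.

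Much larger falls were found among STAT5 target genes, of which 7 of 16 tested members fell and 2 rose. PIM1 (6:37170203-37175426), a survival kinase, read 1002, 968 and 814 CPM with DMSO and 49.1, 47.7 and 54.2 CPM with gilteritinib. The groups did not overlap, and the fall was 18.4-fold (log2 change -4.20 ± 0.13, adjusted p = 3.51e-09). CISH (3:50606490-50611831), whose promoter is printed above, read 228, 283 and 203 CPM with DMSO and 50.7, 52.1 and 52.4 CPM with gilteritinib. The treated libraries lay below every DMSO library, and the fall was 4.6-fold (adjusted p = 3.64e-07). The cytokine oncostatin M gene, OSM, went from 20.1, 22.4 and 21 CPM to 6.43, 5.95 and 5.61 CPM, a 3.51-fold fall (adjusted p = 3.89e-06). Among other feedback inhibitors, SOCS1 fell 3.34-fold (log2 change -1.74 ± 0.17) and SOCS2 fell 1.86-fold (-0.90 ± 0.10), whereas SOCS3 averaged 17.1 CPM with DMSO and 13.1 CPM with gilteritinib (adjusted p = 0.0676, and 0.0121 with the block).

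Paralogs of PIM1 and CCND2 are given beside them. PIM2 averaged 41.7 ± 1.54 CPM with DMSO and 55.6 ± 0.813 CPM with gilteritinib, a 1.33-fold rise (adjusted p = 0.0135) that was lost without DMSO 3, gilteritinib 1 or gilteritinib 3, and the list's count of rises was 1 in those fits. PIM3 averaged 74.5 ± 8.04 and 77.2 ± 3.38 CPM (adjusted p = 0.804). Cyclin D2, CCND2, read 277, 241 and 293 CPM with DMSO and 85.5, 75.6 and 90.4 CPM with gilteritinib, a 3.22-fold fall (log2 change -1.69 ± 0.11, adjusted p = 1.29e-06). CCND3 averaged 309.8 and 358 CPM (adjusted p = 0.22, and 0.0193 with the block), and CCND1 stayed under 9 CPM in every library (adjusted p = 0.23). BCL6, a repressor that STAT5 is known to hold down and FOXO factors to raise, went from 3.99, 3.5 and 3.23 CPM to 6.59, 8.62 and 8.79 CPM, a 2.21-fold rise (adjusted p = 0.00199). The survival genes BCL2L1 (log2 change 0.10 ± 0.13) and MCL1 (0.13 ± 0.10) were not called.

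**Figure D2:**
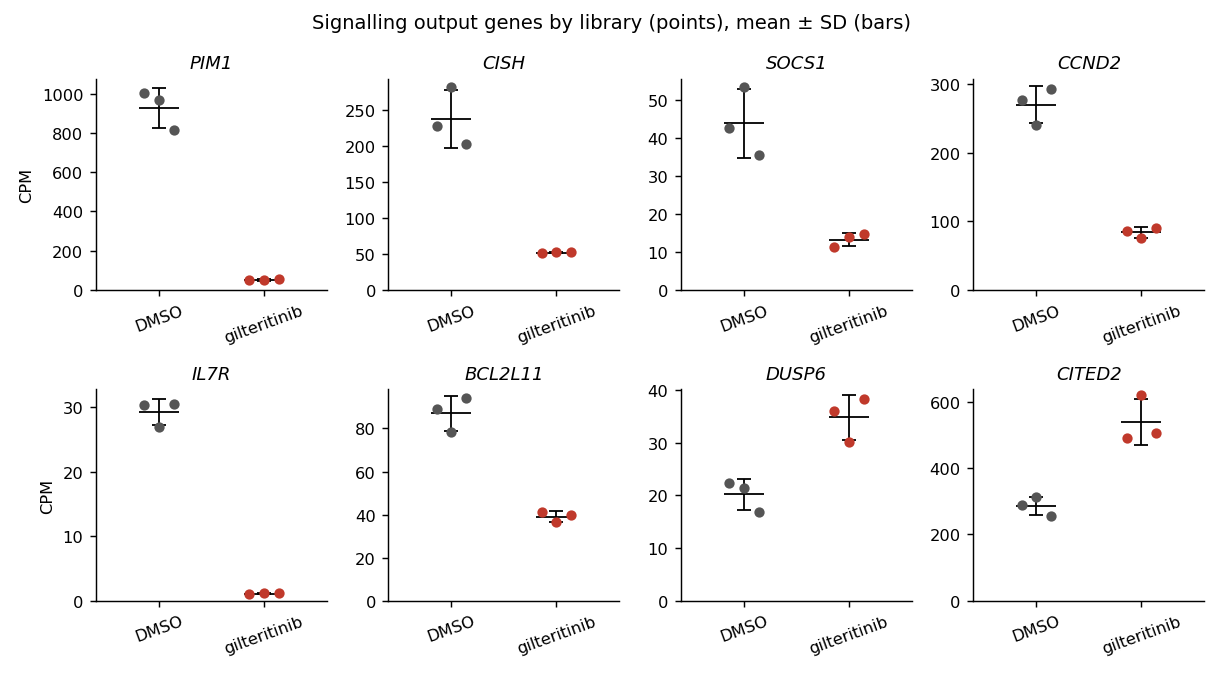
CPM of signalling output genes in each DMSO and gilteritinib library (points, linear axis) with mean ± SD (bars). PIM1, CISH, CCND2, IL7R and BCL2L11 lie lower in every gilteritinib library than in every DMSO library, and DUSP6 lies higher. SOCS1 and CITED2 are also drawn.

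Among the 12 STAT5 list genes with a promoter, the STAT pattern occurred in 1 of the 4 called lower (CISH) and in 2 of the 8 others (BCL6 and LTB). Of all genes with a promoter called at least 2-fold lower (235) or higher (128), 8.94% and 10.2% held the STAT pattern.

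The alpha chain of the interleukin-2 receptor, IL2RA (10:6010689-6062370), was nearly lost. It read 58.7, 54.5 and 52.2 CPM with DMSO, and the 3 gilteritinib libraries together held 1 count. The pooled counts were 1706 and 1, a ratio of 1620 after scaling (exact 95% interval 291 to 64100, counting error only). IL7R, the interleukin-7 receptor chain, went from 30.3, 26.9 and 30.5 CPM to 1, 1.09 and 1.1 CPM, 27.3-fold lower (adjusted p = 9.97e-09). IL1RAP, the co-receptor for interleukin-1 on leukaemic progenitors, fell 1.62-fold (adjusted p = 0.00379), and IL6R rose 1.54-fold, from 142 ± 8.92 to 218 ± 14.6 CPM (adjusted p = 0.00135). Of 16 tested cytokine receptor genes, 4 fell and 2 rose, and with the block 4 rose. The second rise, CSF3R, held only without DMSO 2, and without DMSO 1, DMSO 3, gilteritinib 2 or gilteritinib 3 the list had 1 rise. CSF2RB, the shared chain of the GM-CSF and interleukin-3 receptors, averaged 31.5 and 33.1 CPM (adjusted p = 0.728).

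Outputs of the MAPK route split, with 4 of 20 tested members lower and 2 higher, beside 8.18% and 6.92% of all tested genes. EGR3, an immediate-early transcription factor, went from 22.8, 28.3 and 24.2 CPM to 12, 13 and 13 CPM, 1.99-fold lower (adjusted p = 0.000339). The feedback inhibitors SPRY1 (log2 change -0.89 ± 0.19) and DUSP5 (-0.71 ± 0.14) and the stress-response gene IER3 (-0.65 ± 0.12) also fell. DUSP6, the ERK phosphatase, moved the other way, from 22.3, 21.4 and 16.8 CPM to 36, 30.1 and 38.3 CPM, a 1.72-fold rise (adjusted p = 0.00293). FOS rose 1.77-fold, from 60.4 ± 7.02 to 107 ± 12.4 CPM (adjusted p = 0.000619). EGR1 overlapped between groups at 37.3, 63.5 and 48.8 CPM against 32.5, 60.8 and 28.5 CPM (adjusted p = 0.451, and 0.00395 with the block). Without DMSO 2 the list had 4 rises, and with the block 7 falls. All 6 named calls held in all 6 fits.

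Genes that FOXO factors are known to activate rose in 6 of 19 tested cases and fell in 2. IRS2, an adaptor of insulin signals, doubled from 69.8, 82.5 and 69.1 CPM to 152, 166 and 157 CPM (2.14-fold, adjusted p = 2.03e-05). CITED2 rose 1.89-fold, the mitochondrial quality-control kinase PINK1 1.64-fold and catalase, CAT, 1.62-fold. BCL2L11, which encodes the death activator BIM, fell from 89, 78.2 and 94.1 CPM to 41.2, 36.4 and 39.6 CPM, 2.23-fold lower (adjusted p = 1.9e-05). The second fall, BNIP3, was lost without DMSO 1, gilteritinib 1, gilteritinib 2 or gilteritinib 3, which left 1 fall. With the block 11 members rose.

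ATF4 and most genes of the amino acid response fell. ATF4 itself (22:39519695-39522685) read 603, 613 and 535 CPM with DMSO and 386, 414 and 397 CPM with gilteritinib, a 1.46-fold fall without overlap (adjusted p = 0.00442). Of 19 tested ATF4 response genes, 15 fell and 1 rose, with a median log2 change of -1.13. All 16 calls held in all 6 fits. CHAC1 went from 122, 138 and 94.5 CPM to 8.85, 11.8 and 11.9 CPM, 11-fold lower (log2 change -3.46 ± 0.17, adjusted p = 8.13e-08). ASNS, at low counts, went from 6.9, 7.58 and 6.47 CPM to 0.584, 1.09 and 0.769 CPM, 8.74-fold lower (adjusted p = 8.28e-06). STC2, the secreted stanniocalcin, fell 41.2-fold from a mean of 37.2 ± 2.74 to 0.93 ± 0.411 CPM (adjusted p = 2.24e-08). DDIT4, an inhibitor of mTORC1 also called REDD1, went from 416, 490 and 346 CPM to 58.1, 61.2 and 57.9 CPM, 7.07-fold lower (adjusted p = 8.13e-08). The cysteine-forming enzymes CBS and CTH fell 6.03-fold and 5.72-fold.

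Members of the same program were not all lower. DDIT3, the stress factor CHOP, averaged 21.6 ± 3.93 and 19.4 ± 4.29 CPM and was not called (adjusted p = 0.57). PPP1R15A, the phosphatase subunit that reverses eIF2-alpha phosphorylation, rose 1.49-fold from 72.3, 90.4 and 81.2 CPM to 109, 136 and 120 CPM (adjusted p = 0.00615).

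Amino acid uptake genes fell in 10 of 14 tested cases, and none rose. SLC7A5 (16:87830023-87869488), the light chain of the leucine transporter, read 945, 1108 and 942 CPM with DMSO and 296, 311 and 277 CPM with gilteritinib. The 3.39-fold fall (adjusted p = 9.86e-07) went with a 2.15-fold fall of its partner chain SLC3A2 (adjusted p = 1.16e-05). The glutamine carrier SLC1A5 fell 2.22-fold from 689.7 ± 44.2 to 311 ± 18.3 CPM. SLC7A11, the cystine importer, went from 63.8, 42.8 and 72.4 CPM to 18.5, 14.8 and 17.1 CPM (3.53-fold lower, adjusted p = 3.18e-05). SLC6A9, the glycine transporter, fell 51.7-fold but from only 7.69 ± 2.42 CPM. Without DMSO 2, and with the block, 1 transporter gene was called higher.

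Genes of serine synthesis and mitochondrial folate metabolism fell, and none of the cytosolic or nuclear folate genes named here was called lower. PHGDH, the first enzyme of serine synthesis, read 307, 397 and 337 CPM with DMSO and 85.4, 97.7 and 84.5 CPM with gilteritinib (3.89-fold lower, adjusted p = 6.9e-07). PSAT1 and PSPH, the next enzymes of the path, fell 4.38-fold and 2.64-fold. Of the mitochondrial folate enzymes, ALDH1L2 fell 4.4-fold, MTHFD2 2.42-fold, MTHFD1L 2.17-fold and SHMT2 1.44-fold. The cytosolic enzymes SHMT1 (20.3 and 24.7 CPM, adjusted p = 0.163) and MTHFD1 (144 and 155 CPM, adjusted p = 0.504) were not called. With the block SHMT1 was called higher (adjusted p = 0.0422). TYMS, which makes thymidylate for DNA synthesis, rose 1.4-fold, and the call was lost without gilteritinib 1. In all, 7 of 13 tested members fell and 2 rose, and no member rose without gilteritinib 1.

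Aminoacyl-tRNA synthetases attach amino acids to transfer RNA. Of the 20 cytosolic aminoacyl-tRNA synthetase genes, 14 fell, with a median log2 change of -0.67. WARS1, for tryptophan, went from 298, 347 and 331 CPM to 94.8, 96.7 and 99.2 CPM (3.36-fold lower, adjusted p = 4.17e-07), and GARS1, for glycine, from 334, 300.1 and 374 CPM to 141, 131 and 133 CPM (2.49-fold lower, adjusted p = 8.28e-06). CARS1, MARS1 and SARS1 fell between 1.82-fold and 1.91-fold. The call of FARSB was lost in 3 of the 6 fits, and 12 of the 14 calls held in all of them. QARS1 (log2 change 0.26, adjusted p = 0.135) and VARS1 (0.13, adjusted p = 0.473) were not called, and with the block QARS1 was called higher (adjusted p = 0.00383). It was the 1 rise of the list with the block. Without DMSO 2 the list also had 1 rise.

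Of 11 tested genes for proline, aspartate and related synthesis, 4 fell and none rose. ASS1, which uses aspartate to make arginine, went from 434, 570 and 505 CPM to 98.9, 115 and 101 CPM (4.8-fold lower, adjusted p = 3.21e-07). GPT2 fell 3.05-fold and PYCR1 2.06-fold. With the block 2 members rose, and without DMSO 2, 1 rose.

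**Figure D3:**
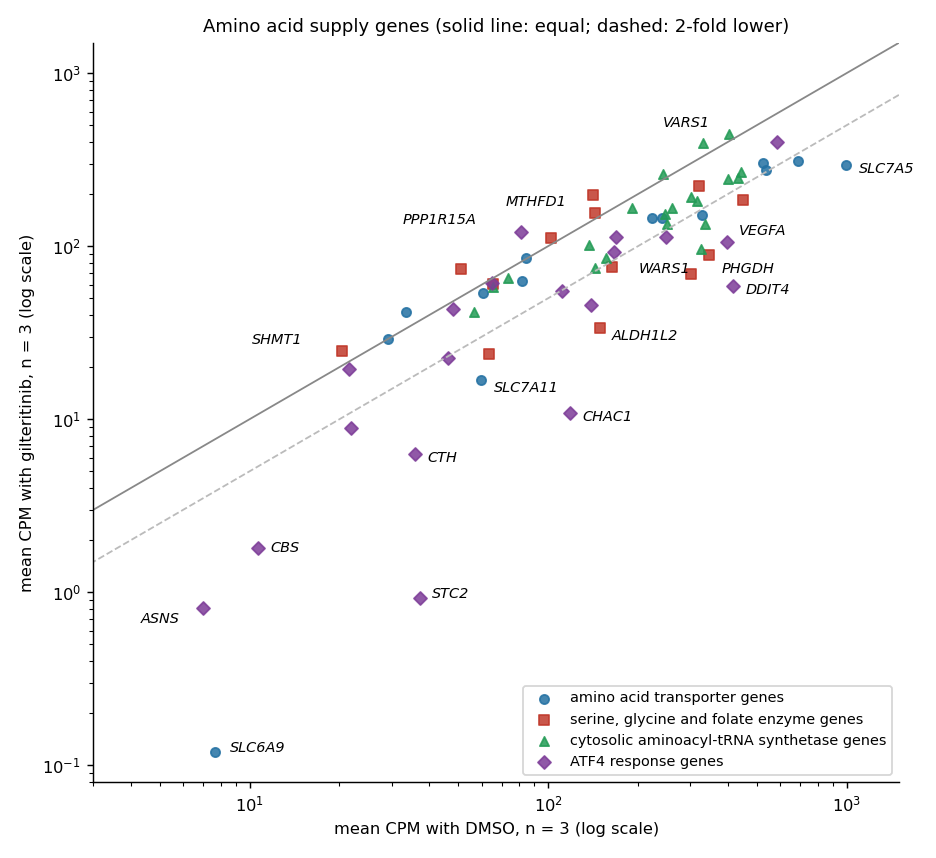
Mean CPM with gilteritinib (y axis) against mean CPM with DMSO (x axis) for tested genes of 4 amino acid lists, both on log axes, with a solid line at equality and a dashed line at 2-fold lower. Most points lie below the solid line, SLC6A9, STC2 and CHAC1 farthest, and VARS1, MTHFD1, SHMT1 and PPP1R15A lie on or above it.

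Of the 61 genes of the amino acid lists with a promoter, the ATF4 pattern occurred in 10 of the 39 that were called lower (25.6%) and in 1 of the 22 that were not (4.55%). It occurred in 8.51% of the 235 genes lower by at least 2-fold and in 2.34% of the 128 higher by at least 2-fold. The lists were drawn partly from known ATF4 targets, so these shares are a description.

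Genes of glucose uptake and use fell in part. Of 23 tested glycolysis genes 9 fell and none rose, with a median log2 change of -0.31. With the block 16 fell, and without DMSO 1 or gilteritinib 1 the count was 5 and 4. SLC2A3, a glucose transporter, went from 225, 179.6 and 213 CPM to 83.2, 67 and 87.6 CPM (2.59-fold lower, adjusted p = 1.75e-05). HK2, the first kinase of glycolysis, read 144, 149 and 150.3 CPM and then 98.2, 96.8 and 98.2 CPM (1.51-fold lower, adjusted p = 0.000794). The lactate carrier SLC16A1 fell 1.66-fold and ALDOC 1.82-fold. PFKFB4 fell 1.76-fold, a call lost without DMSO 1 or gilteritinib 1. Of 14 tested targets of the hypoxia-inducible factors 4 fell and none rose. BHLHE40, a transcriptional repressor, fell 2.81-fold from 173 ± 10.3 to 61.7 ± 2.69 CPM (adjusted p = 1.05e-06), PDK1 fell 1.61-fold and CA9, near 2.5 CPM with DMSO, 3.16-fold. VEGFA, which HIF and ATF4 both drive, went from 394, 427 and 369 CPM to 99.6, 102 and 116 CPM (3.75-fold lower, adjusted p = 3.92e-07).

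MYC (8:127735434-127741434), a growth regulator, read 654, 798 and 648 CPM with DMSO and 436, 500.2 and 449 CPM with gilteritinib. The groups did not overlap, and the 1.52-fold fall held in all 6 fits (adjusted p = 0.00517). Of 23 tested ribosome biogenesis genes 7 fell and none rose, and with the block 14 fell. Only WDR43 (log2 change -0.54 ± 0.10), of the small-subunit processome, held in all 6 fits. The count was 1 without DMSO 3, 4 without gilteritinib 1 and 2 without gilteritinib 3. Of 17 tested purine and pyrimidine synthesis genes 3 fell, and with the block 8. PPAT, the first enzyme of purine synthesis, fell 1.84-fold (adjusted p = 0.00208) and held in all 6 fits. The list had 6 falls without DMSO 2 and 1 without DMSO 1, DMSO 3, gilteritinib 2 or gilteritinib 3.

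Sterol and fatty acid genes fell in part. Of 23 tested cholesterol synthesis genes 4 fell, and with the block 11 fell and 2 rose. HMGCS1 (log2 change -0.67 ± 0.14) and SQLE (-0.67 ± 0.13), early and mid-pathway enzymes, held in all 6 fits. Without DMSO 2 the list had 8 falls and 2 rises, and without DMSO 1 it had 2 falls. Of 12 tested fatty acid synthesis genes 4 fell, and with the block 7 fell and 1 rose. None of these 4 calls held in all 6 fits: ACSS2 was lost without DMSO 1, and the list had 1 fall without DMSO 1, DMSO 3, gilteritinib 2 or gilteritinib 3 and 2 without gilteritinib 1. Without DMSO 2 it had 1 rise.

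Calls among genes of respiration depended on the fit. Of all tested genes 6.92% rose and 8.18% fell, and with the block 17.7% and 17.6%. IDH2, a mitochondrial enzyme that makes NADPH, rose from 159, 174 and 138 CPM to 226, 249.5 and 222 CPM (1.48-fold, adjusted p = 0.00497) and was the 1 call among 19 tested tricarboxylic acid cycle genes, of which the block called 6 higher and 1 lower. Without DMSO 2 this list had 3 rises and 3 falls. Of 40 nuclear genes for respiratory chain subunits 4 rose, with a median log2 change of 0.22, and with the block 22 rose. NDUFA6, of complex I, rose 1.49-fold (adjusted p = 0.00969) and held in all 6 fits. The count was 16 without DMSO 2, 1 without DMSO 1, DMSO 3 or gilteritinib 2 and 2 without gilteritinib 3.

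The 13 mitochondrially encoded genes had a median log2 change of 1.87 and no call by edgeR's test as specified or by DESeq2, although 11 had an unadjusted p under 0.05 in edgeR's test. With no filter on low counts edgeR called 12 of them higher, and with all 12 libraries in 1 fit it called 2. MT-ND5, a complex I subunit, read 156, 750.2 and 132 CPM with DMSO and 373, 3605 and 428 CPM with gilteritinib (adjusted p = 0.111). The second library of each group was the highest, and the groups overlapped. MT-CO1 overlapped as well, at 4728, 6665 and 5403 CPM against 5720, 8345 and 6088 CPM (adjusted p = 0.293). With the block all 13 were called higher, MT-ND5 at an adjusted p of 4.51e-29 and MT-CO1 at 0.00523. Without DMSO 2, gilteritinib 1 or gilteritinib 3, 12, 8 and 3 were called.

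In the endoplasmic reticulum, 3 of 17 tested chaperone and quality-control genes fell and 2 rose. XBP1, a transcription factor of the unfolded protein response, went from 675, 548 and 622 CPM to 262, 245 and 269 CPM (2.38-fold lower, adjusted p = 1.6e-05). HERPUD1 and EDEM1, which serve protein degradation, fell 2.01-fold and 1.61-fold. Calreticulin, CALR, nearly doubled from 983, 944 and 874 CPM to 1747, 1911 and 1678 CPM (1.91-fold, adjusted p = 0.000108). HSPA5, the main chaperone BiP, averaged 650.7 and 622 CPM (adjusted p = 0.713). The second rise, PDIA4, was lost in 5 of the 6 fits, all but that without DMSO 2, in which the list had 4 rises. With the block it had 5.

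**Figure D4:**
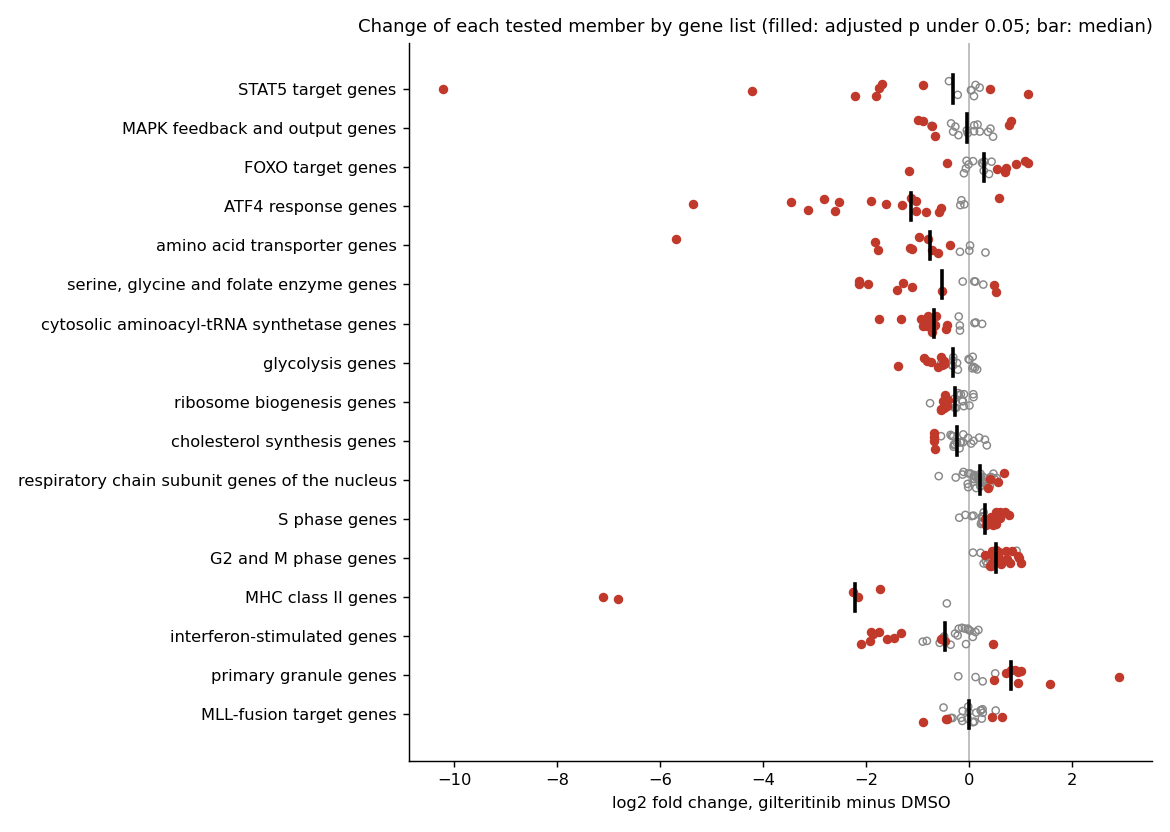
Log2 change of each tested member (points, x axis) of 17 gene lists (y axis), filled where the adjusted p was under 0.05, with a bar at each list's median. ATF4, transporter, synthetase and MHC class II lists lie to the left, and G2 and M phase and primary granule lists lie to the right. IL2RA, the leftmost point of the STAT5 list, is drawn at its fitted value.

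Many genes of the cell cycle were higher after 8 days. Of 29 tested G2 and M phase genes 22 rose and none fell, with a median log2 change of 0.52. The count was 14 without DMSO 3 or gilteritinib 3. MKI67 (10:128096659-128126385), the proliferation marker Ki-67, went from 291, 293 and 279.7 CPM to 563, 619 and 520.4 CPM (1.97-fold, adjusted p = 7.22e-05). CDC20, the activator of the anaphase-promoting complex, doubled from 47.3, 55.2 and 48.5 CPM to 103, 110.3 and 91.8 CPM (2.02-fold, adjusted p = 6.28e-05). KIF20A rose 1.95-fold, HMMR 1.78-fold and CENPA 1.73-fold. Of 25 tested S phase genes 12 rose and none fell, with a median of 0.32, and with the block 19 rose. MCM5, a subunit of the replicative helicase, went from 129.9, 169 and 139.5 CPM to 234, 299.5 and 224 CPM (1.73-fold, adjusted p = 0.00221), and GINS2, CLSPN and MCM2 rose between 1.52-fold and 1.63-fold. The S phase count was 6 without DMSO 1 or gilteritinib 1, and 1 member was lower without DMSO 2.

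Regulators of the G1 to S step moved in both directions. Of 20 tested genes for D and E cyclins, their kinases and inhibitors, 4 rose and 1 fell, the CCND2 given above. E2F8 and E2F2, transcription factors of S phase genes, rose 2.1-fold and 1.75-fold, and CDKN2C, an inhibitor of CDK4 and CDK6, rose from 203, 213 and 205 CPM to 298, 315 and 288 CPM (1.45-fold, adjusted p = 0.00313). The fourth rise, CCNE1, held only without DMSO 2. The p53 target and CDK inhibitor CDKN1A averaged 327 ± 40.6 and 256 ± 12.8 CPM (adjusted p = 0.0595, and 0.000173 lower with the block). With the block 10 members rose and 3 fell. Without DMSO 2, 8 rose and 2 fell, and without DMSO 3, 2 fell.

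The BCL2 family had 4 falls and no rise among 15 tested genes. BCL2 (18:63123346-63320128), a target of venetoclax, read 397, 363 and 441 CPM with DMSO and 306, 284 and 296 CPM with gilteritinib, 1.36-fold lower (adjusted p = 0.0182), and the call held only without DMSO 2. PMAIP1, or NOXA, fell 1.46-fold and was lost without DMSO 1, DMSO 3, gilteritinib 1 or gilteritinib 3. BCL2L11, given above, and BOK, which fell 8.98-fold from 1.91 ± 0.69 CPM, held in all 6 fits. The list had 2 falls without DMSO 1, gilteritinib 1 or gilteritinib 3, and 1 rise without DMSO 2 or gilteritinib 2. With the block it had 2 rises.

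MHC class II genes present antigen to helper T cells. Of 12 listed, 6 passed the filter on low counts, and 5 of these fell. A gene could pass the filter through a group in which it was high. Of those that did not pass, HLA-DPA1 went from 19 to 3 and HLA-DPB1 from 19 to 2 counts over the 3 libraries of a group. HLA-DMB went from 18 to 1, HLA-DRB5 from 10 to 0, HLA-DQA1 from 8 to 0 and HLA-DOA from 1 to 0. HLA-DRA (6:32439842-32445046) read 30.8, 25.6 and 28.5 CPM with DMSO and 0.167, 0 and 0.55 CPM with gilteritinib, 113-fold lower (adjusted p = 8.13e-08). HLA-DRB1, whose reads can be split with near-identical copies and is uncertain for that reason, had 199 counts with DMSO and 1 with gilteritinib, a ratio of 189 (exact 95% interval 33.6 to 7510). CIITA, the transactivator of the class, went from 8.26, 8.62 and 7.12 CPM to 1.92, 2.06 and 0.989 CPM (4.78-fold lower, adjusted p = 7.13e-05). HLA-DQB1 fell 4.45-fold and HLA-DMA 3.31-fold. CD74, the invariant chain, overlapped between groups at 264, 385 and 240.5 CPM against 195, 258 and 209 CPM (adjusted p = 0.113, and 8.12e-06 with the block). All 5 calls held in all 6 fits. Of 15 tested MHC class I genes 3 rose and none fell, and none of those calls held in all 6 fits. With the block 10 rose and 1 fell, without DMSO 2 it was 9 and 1, and the rises were 0 without DMSO 1 and 1 without gilteritinib 1.

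Ligands that engage T cells fell in part. Of 8 tested costimulatory and adhesion genes 4 fell and none rose, and all 4 held in all 6 fits. ICAM1 went from 46.4, 47.4 and 39.9 CPM to 7.76, 6.55 and 6.49 CPM (6.38-fold lower, adjusted p = 1.48e-07). CD80, a ligand of CD28, had 181 counts with DMSO and 2 with gilteritinib, a ratio of 86 (exact 95% interval 23.5 to 716). CD70 fell 1.67-fold and ICOSLG 1.6-fold. BATF3 and SPIB, transcription factors of dendritic cells, fell 13.8-fold from 4.4 ± 0.439 CPM and 8.78-fold from 22.3 ± 6.36 CPM. They were the 2 falls among the 5 tested of 14 listed dendritic cell genes, and 1 member rose with the block or without DMSO 2. A gene of either list could pass the filter on low counts through a group in which it was high. Of the untested dendritic cell genes, IRF4 went from 28 to 6 and CCR7 from 12 to 10 counts over the 3 libraries of a group. CLEC10A went from 25 to 4 and FLT3LG from 2 to 5.

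Interferon-stimulated genes fell in 10 of 29 tested cases and rose in 1. IFIT1 went from 8.62, 7.01 and 7.12 CPM to 1.75, 1.58 and 2.75 CPM (3.75-fold lower, adjusted p = 0.000187), and its neighbours IFIT2 and IFIT3 fell 3.65-fold and 3.37-fold. OAS2 and HERC5, both under 5 CPM, fell 4.3-fold and 3.77-fold. The rise, GBP2, held only without DMSO 1. The interferon pattern occurred in the promoters of 5 of the 6 members called lower that had one and of 7 of the 15 others.

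Chemokine and cytokine genes moved up in 4 of 14 tested cases and down in 1. TNF read 58.6, 79.2 and 61.9 CPM with DMSO and 146, 150 and 146 CPM with gilteritinib (2.21-fold higher, adjusted p = 4.74e-05). CCL23 rose 2.82-fold, CCL3 1.58-fold and CCL5 1.61-fold, the last lost without DMSO 1. CCL3 has near-identical copies, so its counts are uncertain. CSF1, the growth factor of macrophages, fell 4.43-fold from 6.86 ± 0.895 CPM (adjusted p = 8.78e-05). With the block 2 members fell.

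Granule genes of early granulocytes rose, with 9 of 13 tested members higher, none lower and a median log2 change of 0.82. ELANE, neutrophil elastase, went from 1251, 1627 and 1290 CPM to 2621, 3025 and 2462 CPM (1.95-fold, adjusted p = 0.000385). AZU1, azurocidin, lies in the same cluster of chromosome 19 and went from 1274, 1701 and 1277 CPM to 2641, 3387 and 2588 CPM (2.03-fold, adjusted p = 0.000582). PRTN3, between them, overlapped at 1879, 2936 and 1753 CPM against 2691, 4139 and 2534 CPM (adjusted p = 0.129, and 3.01e-08 with the block). BPI, a bactericidal granule protein, rose 2.97-fold from 25.5 ± 2.82 to 75.6 ± 4.41 CPM, and SERPINB10 rose 7.51-fold from 0.598 ± 0.251 CPM. Cathepsin G, CTSG, averaged 159.6 and 138 CPM (adjusted p = 0.23, and 0.0218 lower with the block, the 1 fall of this list).

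Of 15 listed genes of mast cells, basophils and eosinophils, 5 passed the filter on low counts, and these rose in all 6 fits. EPX, eosinophil peroxidase, went from 36.6, 34.9 and 41.7 CPM to 151, 149.6 and 134 CPM (3.84-fold, adjusted p = 2.96e-07). PRG2, the major basic protein, rose 8.44-fold from 0.969 ± 0.493 to 8.08 ± 1.01 CPM (adjusted p = 1.93e-05). GATA2, a transcription factor of these lineages and of progenitors, rose 1.77-fold from 172 ± 27.4 to 306 ± 17.4 CPM. The tryptase genes TPSB2 and TPSAB1 rose 4.58-fold and 3.47-fold, but share near-identical sequence and are uncertain. A gene could pass the filter through the group in which it was high. Of the 10 that did not pass, PRG3 went from 2 to 34 and IL5RA from 5 to 21 counts over the 3 libraries of a group, while CCR3 went from 12 to 3, CLC from 9 to 4, KIT from 18 to 15 and HDC from 4 to 3.

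In the monocyte and macrophage list, 5 of 19 tested members were called higher and 0 lower, with a median log2 change of -0.01. CYBB, the NADPH oxidase subunit, went from 12.1, 11.5 and 11.5 CPM to 34, 22.4 and 31.4 CPM (2.51-fold, adjusted p = 0.000152), TLR4 rose 2.1-fold and FCGR1A 1.68-fold. The calls of MNDA and MS4A7 were each lost in 2 of the 6 fits, and 3 members rose without gilteritinib 1. CSF1R, the macrophage growth factor receptor, averaged 86.3 ± 7.82 and 71.5 ± 1.2 CPM (adjusted p = 0.0896, and 0.00469 lower with the block). With the block 4 members fell, and without DMSO 2, 2 fell. Of 8 neutrophil maturation genes tested 3 rose, among them CXCR2 (2.59-fold, adjusted p = 0.000164). FCAR (2.93-fold) and CSF3R, given above, were both lost without gilteritinib 1, which left 1 rise.

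Of 19 tested myeloid transcription factor genes 5 rose and 1 fell, and these 6 calls held in all 6 fits. CEBPE, which drives granule genes, went from 2.27, 2.08 and 1.51 CPM to 6.59, 8.62 and 6.27 CPM (3.59-fold, adjusted p = 0.000214). CEBPD rose 1.96-fold, GFI1 1.42-fold and IKZF1 1.41-fold, while CEBPB fell 1.89-fold from 66.6 ± 8.56 to 35.3 ± 1.55 CPM (adjusted p = 0.000219). CEBPA (671 and 835 CPM, adjusted p = 0.0895) and SPI1 (265 and 312 CPM, adjusted p = 0.316) were not called, and with the block both were higher (adjusted p = 0.000394 and 0.00587). The blocked counts were 9 and 4. Of 9 tested surface markers of myeloid leukaemia 3 rose and 1 fell, and with the block 5 rose and 3 fell. Without DMSO 2, 2 fell. CD33 rose 1.59-fold from 92.3 ± 8.96 to 147 ± 6.7 CPM and ANPEP, or CD13, 3.25-fold from 1.86 ± 0.461 CPM, while CLEC12A was called in the full fit and in 1 of the 6. CD38 fell 1.78-fold and ANGPT1, angiopoietin-1, rose 2.02-fold, both among 4 tested stem and progenitor genes.

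**Figure D5:**
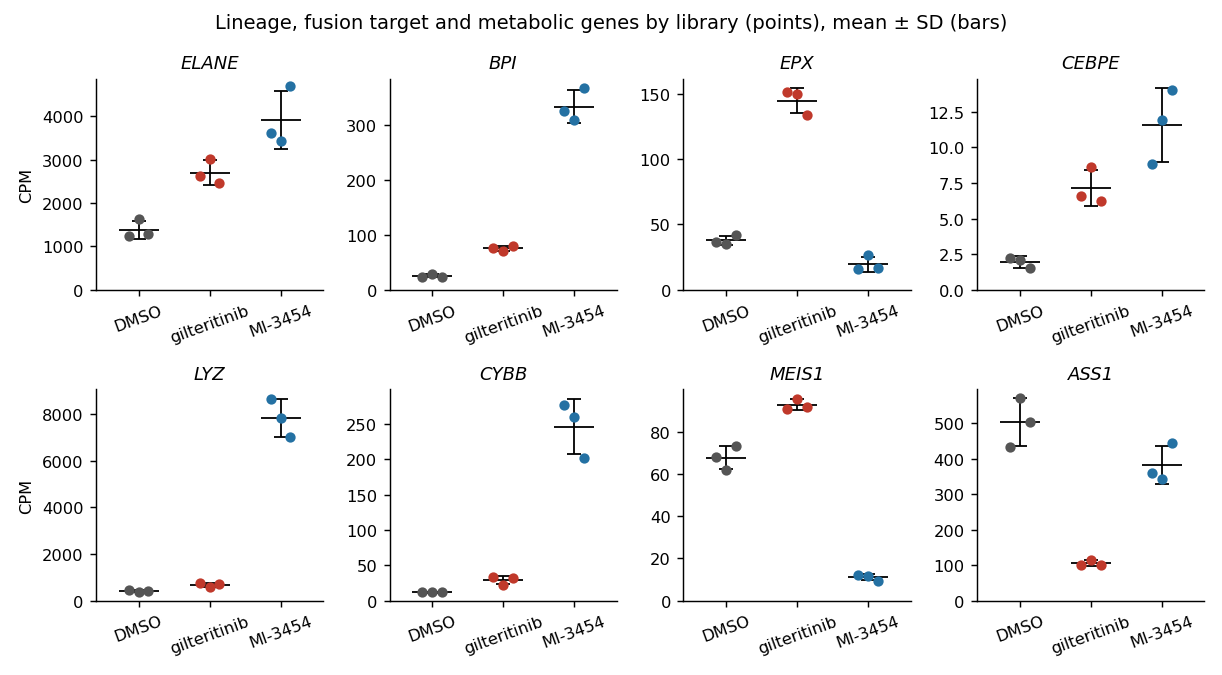
CPM of lineage, fusion target and metabolic genes in each DMSO, gilteritinib and MI-3454 library (points, linear axis) with mean ± SD (bars). ELANE, EPX, CEBPE, CYBB and MEIS1 lie higher in every gilteritinib library than in every DMSO library, and ASS1 lies lower. BPI, LYZ and CYBB lie highest with MI-3454.

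Targets of the MLL fusion had 2 rises and 3 falls among 23 tested genes, beside 6.92% and 8.18% of all tested genes. Their median log2 change was -0.0025. MEIS1, a cofactor of HOXA proteins, went from 68, 61.9 and 73 CPM to 90.8, 95.6 and 91.7 CPM (1.37-fold, adjusted p = 0.00911), a call that held in all 6 fits. HOXA7 rose 1.55-fold and was lost without DMSO 1 or gilteritinib 3, which left 1 rise. HOXA9 averaged 62.3 ± 2.52 and 57 ± 3.44 CPM (adjusted p = 0.408). The falls were SOCS2, FLT3 and BCL2, given above, and without DMSO 1, DMSO 3, gilteritinib 1, gilteritinib 2 or gilteritinib 3 SOCS2 alone remained. With the block 7 members rose.

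Counts of 5 further lists follow, to be read beside the 6.92% higher and 8.18% lower of all tested genes. Of 27 tested lysosome and autophagy genes 5 rose and 2 fell, and with the block 11 and 4. TFEB, the transcription factor of lysosome genes, read 37.3, 40.6 and 30.4 CPM with DMSO and 21.4, 23.4 and 23.2 CPM with gilteritinib (1.6-fold lower, adjusted p = 0.00459). That call held in all 6 fits, and the list's rises numbered 1 without gilteritinib 3, 2 without DMSO 1 or DMSO 3, 3 without gilteritinib 1 or gilteritinib 2 and 9 without DMSO 2. Its falls numbered 1 without DMSO 1, DMSO 3, gilteritinib 2 or gilteritinib 3. Of 18 tested p53 target genes 2 fell and none rose, and neither fall (TIGAR and PLK3) held in all 6 fits. With the block 6 fell and 2 rose, with no filter on low counts 5 fell, and with all 12 libraries in 1 fit 4 fell and 1 rose. The falls of this list numbered 1 without gilteritinib 1 or gilteritinib 3 and 0 without gilteritinib 2, and 1 member rose without DMSO 2. Of 12 tested heat shock genes 2 rose, and both calls (HSPA1B and BAG3) were lost without DMSO 1, DMSO 3 or gilteritinib 2. Without gilteritinib 1 or gilteritinib 3, 1 rose, and with the block 3 rose and 1 fell. Of 7 tested pentose phosphate genes 2 rose, and neither call held in all 6 fits: none rose without DMSO 1, DMSO 3 or gilteritinib 2, and 1 rose without gilteritinib 1 or gilteritinib 3. Without DMSO 2, 1 fell, and with the block 3 rose and 2 fell. None of 9 tested iron and haem genes was called by edgeR's test as specified or by DESeq2, 2 had an unadjusted p under 0.05 in edgeR's test, and with the block 3 rose and 1 fell. Without DMSO 2, edgeR called 2 higher and 1 lower.

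The largest rises and falls lay partly outside these lists. SLC6A13, a transporter of the inhibitory transmitter GABA, went from 1.82, 1.61 and 2.05 CPM to 18.7, 20.3 and 20.1 CPM (10.8-fold, adjusted p = 1.09e-07). IRX3, a homeobox gene, rose 9.63-fold from 8.68 ± 1.7 to 83.8 ± 7.07 CPM (adjusted p = 3.88e-08). Among protein-coding genes that reached a mean of 5 CPM, did not overlap and held in all 6 fits, the next in size of rise were ADAMTS7 (8.94-fold), PRG2, CSRP3 (5.89-fold), IQSEC3 (5.14-fold), EPHB6 (4.91-fold), LOXHD1 (4.9-fold), GABRA4 (4.8-fold), RHEX (4.8-fold), TPSB2 and DZANK1 (4.54-fold). RHEX, a regulator of erythropoietin signals in red cell precursors, reached 79.1 ± 6.04 CPM, and the others of this row except IRX3 and TPSB2 stayed under 23 CPM in every library. Among falls, RHBDL3 had 263 counts with DMSO and 3 with gilteritinib, a ratio of 83.3 (exact 95% interval 28.2 to 407). ALDH1A3, which makes retinoic acid, went from 55.8, 61.9 and 71.9 CPM to 2.59, 2.18 and 2.53 CPM (25.6-fold lower, adjusted p = 5.06e-09). APOL4 fell 25.2-fold from 18.3 ± 0.917 CPM and STON1 16.5-fold from 10.3 ± 3.13 CPM.

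Among protein-coding genes whose groups did not overlap and whose call held in all 6 fits, the gains in mean level were led by AZU1, ELANE and CALR, given above, and by CA2, carbonic anhydrase 2, which went from 304, 302 and 309 CPM to 874, 816 and 962 CPM (2.9-fold, adjusted p = 1.75e-06). APLP2, BSG and LYZ rose 1.45-fold, 1.46-fold and 1.65-fold, LYZ from 414 ± 37.4 to 682 ± 84.3 CPM. Among the same genes, the losses were led by JUND, an AP-1 transcription factor, which read 1704, 1912 and 1527 CPM with DMSO and 669, 709.5 and 693 CPM with gilteritinib (2.48-fold lower, adjusted p = 1.12e-05). ENPP2, which encodes autotaxin, the enzyme that makes lysophosphatidic acid, went from 837, 755 and 821 CPM to 80, 77.2 and 81.6 CPM (10.1-fold lower, adjusted p = 3.79e-09).

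Of the noncoding genes and those of other classes, MIR155HG, the host gene of miR-155, went from 35.3, 30 and 33 CPM to 6.59, 6.43 and 7.25 CPM (4.84-fold lower, adjusted p = 4.58e-07). The abundance of the mature miRNA was not measured. GCAWKR (15:100849831-100876836), a long noncoding gene, ends just before the start of ALDH1A3 (15:100877714-100916626) and fell 5.75-fold from 7.13 ± 0.475 CPM. FOXO3B, listed as a pseudogene, fell 10.3-fold, but has a near-identical copy in FOXO3 and is uncertain. MALAT1, picked out after its values were seen for its abundance, read 6205, 5712 and 7155 CPM with DMSO and 3213, 3427 and 3887 CPM with gilteritinib (1.81-fold lower, adjusted p = 0.000435). TRDC, the constant segment of the T cell receptor delta locus, rose 5.56-fold to 5.09 ± 0.728 CPM, and TRD-AS1, antisense to that locus and spanning TRDC, rose 3.62-fold to 27.4 ± 1.61 CPM. Their reads cannot be told apart without the strand setting. LINC01140 rose 4.57-fold from 1.53 ± 0.173 CPM.

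The difference from the other single agent was tested directly, since both effects share the DMSO libraries. Gilteritinib libraries had 1038 genes higher and 1392 lower than MI-3454 libraries, or 7.43% and 9.96% of those tested. Without MI-3454 3, which had the largest RN7SL1 share of its group (4.56%), the counts were 2391 and 2299. Without gilteritinib 1, gilteritinib 2, MI-3454 1 or MI-3454 2 the higher genes numbered 661, 676, 613 and 640, and the lower genes 927 without gilteritinib 1. Of the 967 genes that rose with gilteritinib, 259 were higher and 145 lower than with MI-3454. Of the 1143 that fell, 296 were lower and 85 higher.

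Some STAT5 target and cytokine receptor genes were lower with gilteritinib than with MI-3454. PIM1 read 274, 252 and 298 CPM with MI-3454 and was 2.44 ± 0.11 lower on the log2 scale with gilteritinib (log2 difference -2.44, adjusted p = 9.15e-08). CISH differed by -0.93 ± 0.11 (adjusted p = 0.000111), IL7R by -2.00 ± 0.31 (adjusted p = 0.00088) and IL1RAP by -1.02 ± 0.12 (adjusted p = 9.68e-05). SOCS2 went the other way, at 13.9, 18.2 and 15.5 CPM with MI-3454 against 129, 118 and 123 CPM with gilteritinib (log2 difference 2.96 ± 0.12, adjusted p = 4.15e-08). EGR3 differed by 2.82 ± 0.21. FLT3 read 248, 235 and 201 CPM with MI-3454, below every gilteritinib library (log2 difference 1.20 ± 0.12, adjusted p = 2.56e-05), and BCL2 differed by 0.87 ± 0.10 (adjusted p = 7.04e-05). These differences held in all 6 fits that left out 1 library.

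Of the amino acid genes, CHAC1 was 1.74 ± 0.18 (log2) lower with gilteritinib than with MI-3454, ASS1 1.86 ± 0.13, SLC7A11 1.72 ± 0.17, PHGDH 1.38 ± 0.13 and ALDH1L2 1.45 ± 0.11 (log2 differences -1.74, -1.86, -1.72, -1.38 and -1.45, adjusted p between 1.86e-06 and 4.29e-05). MYC (log2 difference -0.04 ± 0.11, adjusted p = 0.822), JUND (-0.01 ± 0.12, adjusted p = 0.964) and ENPP2 (-0.13 ± 0.12, adjusted p = 0.51) were not told apart between the agents. Of 14 tested transporter genes 10 were lower with gilteritinib, 6 without gilteritinib 1, and 5 without gilteritinib 2, gilteritinib 3, MI-3454 1 or MI-3454 2.

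Many lineage genes differed between the agents. Of 23 tested MLL-fusion targets 21 were higher with gilteritinib than with MI-3454 and none was lower, with a median log2 difference of 1.13. MEIS1 read 12.2, 11.4 and 9.33 CPM with MI-3454, 3.09 ± 0.12 (log2) below gilteritinib (adjusted p = 4.15e-08). Of 19 tested monocyte genes 15 were lower with gilteritinib, of 13 primary granule genes 9 and of 8 neutrophil genes 6. LYZ reached 8644, 7829 and 7021 CPM with MI-3454 (log2 difference -3.51 ± 0.14, adjusted p = 5.78e-08), CYBB 277, 259.6 and 202 CPM (-3.06 ± 0.17) and BPI 326, 309 and 368 CPM (-2.14 ± 0.11). AZU1 did not differ beyond the spread (-0.18 ± 0.16, adjusted p = 0.478). The 5 mast cell and eosinophil genes that passed the filter were higher with gilteritinib, among them EPX, at 15.9, 26.3 and 16.9 CPM with MI-3454 (log2 difference 2.88 ± 0.17, adjusted p = 3.66e-07), and GATA2 (1.63 ± 0.14, adjusted p = 9.37e-06). Of the chemokines, CCL5 was 1.68 ± 0.14 and TNF 0.93 ± 0.13 (log2) higher with gilteritinib. The 29 tested interferon-stimulated genes split, with 4 higher and 4 lower with gilteritinib than with MI-3454 and a median log2 difference of 0.05. IFIT1 (2.46 ± 0.46) and IFIT2 (1.06 ± 0.18) were higher with gilteritinib than with MI-3454, in which IFIT1 read 0.557, 0.308 and 0.217 CPM.

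Among genes that changed with gilteritinib, the largest differences above MI-3454 were those of CSRP3 (6.89 ± 0.52), SLC6A13 (5.74 ± 0.24), DYNC1I1 (4.85 ± 0.26), ADAMTS7 (4.70 ± 0.51), KLHDC7B (4.19 ± 0.24) and IL12RB2 (3.99 ± 0.20), all on the log2 scale. The largest below it were ROS1 (-5.72 ± 0.25), NAV3 (-5.72 ± 0.15), IGFBP2 (-4.68 ± 0.31), FAM124A (-4.08 ± 0.17), CR1 (-4.00 ± 0.29) and SERPINB10 (-3.99 ± 0.16). IGFBP2, a binding protein of insulin-like growth factors, read 3.36, 5.3 and 3.67 CPM with DMSO, 0.25, 0.364 and 0.22 CPM with gilteritinib and 7.47, 6.88 and 7.81 CPM with MI-3454. NAV3 read 101, 94.8 and 91.2 CPM with MI-3454 and under 2.2 CPM in every gilteritinib library.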

How the data were processed

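The authors deposited raw, whole-number counts of reads per gene, 1 file per library, with 60668 genes and 5 summary rows that were left out of library sizes and tests (reads with no feature were 15.6% to 20.4% of uniquely placed reads in the 6 libraries). The build GRCh38 and the tools HTSeq 0.11.2, STAR 2.7.1a, DESeq2 and cutadapt 2.1 are listed, without roles, per the submitters' processing notes. Neither the annotation release nor the strand setting is given in the sources used here, so overlapping, antisense and near-identical genes are uncertain. Counts were fitted in R 4.3.3 with edgeR 4.0.16 (quasi-likelihood F test, TMM, Benjamini-Hochberg adjustment) on the 13972 genes that passed filterByExpr, each comparison in its own 6 libraries. CPM used TMM over the 12 libraries. SE values were derived from the log2 change and F. Coordinates and classes came from GENCODE 29 on GRCh38, which matched 58561 genes.

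Groups and replicate numbers came from the titles; in the MI-3454 group a treatment label carries other trailing numbers. The deviations of DMSO and gilteritinib libraries from their group means had correlations of 0.181, 0.456 and 0.144 for pairs with the same number. For different numbers they ran from -0.36 to 0.262. Equal numbers were thus not shown to mark a pairing. Blocked values are given where they change a call or move a count by over 1.5 times. The members and the 51 lists (874 of 875 entries matched) were chosen with earlier results of these data known. Named genes were 14 anchors, the 12 largest rises and falls and 8 largest CPM gains and losses of protein-coding genes that had at least 5 CPM in the higher group, no overlap and a call in all leave-one-out fits, the 4 largest of other classes, up to 5 called members of a list, and 6 each way against MI-3454. MALAT1, COL1A1 and the further list members named lie outside this rule and were chosen with values seen. Some genes that met the rule are not reported here. On simulated counts for gilteritinib against DMSO (13972 genes), 24 of 50 genes changed 1.5-fold, 33 of 50 changed 2-fold and 46 of 50 changed 4-fold were recovered, with 9 false calls. The simulated counts were drawn independently for each library, so these rates need not hold for real libraries that share deviations. Alternatives were DESeq2 1.42.0, other scalings and filters, a fit of all 12 libraries, the block and leaving out libraries.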

Additional observations from a re-analysis of the deposited data

How the results depend on the processing

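With the replicate block, the genes called against DMSO numbered 2474 higher and 2454 lower. Without DMSO 2 and gilteritinib 2 together, they numbered 2132 and 2118, and with 1 library left out 535 to 1928 and 677 to 2057. DESeq2 called 957 and 1078, and other scalings, no low-count filter, all 12 libraries in 1 fit and protein-coding genes alone gave counts within 1.5 times the main ones. The deviations of same-numbered MI-3454 and gilteritinib libraries had correlations of 0.227, -0.322 and -0.229. Against MI-3454, the genes higher with gilteritinib numbered 1706 with no low-count filter and 646 with the replicate block. With 1 library left out they ranged from 613 to 2391, and the genes lower from 927 to 2299. The cause of these shifts was not tested. List counts moved more under these settings. The respiratory chain rises (4) were 7 by DESeq2, 11 with no filter and 2 with all 12 libraries, the MHC class I rises (3) were 6 by DESeq2 or with no filter, and the lysosome rises (5) were 8 with no filter. With all 12 libraries, FLT3 transducer rises (1) and myeloid factor falls (1) were 2 each, heat shock rises (2) were 1, 1 transporter gene rose and 1 monocyte gene fell. A BCL2 family gene rose with no filter or all 12 libraries, and cyclin list falls (1) were 2 in both of these, by DESeq2 and with no TMM. With no TMM, FLT3 transducer and interferon rises (1 each) were 0 and pentose phosphate and heat shock rises (2 each) were 1. Pentose phosphate rises were also 1 with no filter, and FLT3 transducer rises 2 with protein-coding genes alone. No named gene lost its call under the replicate block, and 15 gained one. Among named genes only PIM3, which was not called, changed direction: its log2 change ranged from -0.0031 without DMSO replicate 3 (adjusted p = 0.992) to 0.1406 without DMSO replicate 2. Depth limits genes with few reads: the gilteritinib libraries together held 1 to 3 counts of IL2RA, HLA-DRB1, CD80 and RHBDL3, and the intervals of their ratios are wide (28.2 to 407 for RHBDL3).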
